A study of Mus musculus with 12 samples.

Results

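The gene set described here is a group of 9 basement membrane genes: Col4a1, Col4a2, Lama1, Lama5, Lamb1, Lamc1, Nid1, Hspg2 and Sparc. They were taken by their symbols from the 18412 genes listed in each of the 4 deposited tables, and all 9 had a value in every library and passed the filter on low values in every table. The list was chosen with the knockout-against-wild-type differences of these tables already known. Those differences are therefore given as a description. No p-value of a member is given, and how many members a test across all genes calls is stated as a count from which nothing is read.

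PolyA RNA was sequenced from 12 libraries of mouse embryonic stem cells, 3 in each of 4 groups. The Dicer1-/- line lacks the nuclease that cuts hairpin precursors into mature microRNAs, and it was set against the wild-type line TFC. The Dgcr8-/- line lacks the protein with which Drosha cuts microRNA primary transcripts in the nucleus, and it was set against the wild-type line V6.5. All 4 lines were kept on gelatin in medium with serum and leukaemia inhibitory factor (LIF), and the study's title names Argonaute loss and Tgf-β/Smad signalling. Each genotype is represented by 1 line, so loss of the factor cannot be told apart from any other difference between the lines. The labels do not say whether the 3 libraries of a line are separate cultures, so the spread between them may be technical.

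The basement membrane is a thin sheet of matrix on which epithelial cells sit. Laminin trimers, each of an alpha, a beta and a gamma chain, form one network at the cell surface, and collagen IV trimers, typically of α1 and α2 chains, form another. Nidogen and perlecan join the networks, and SPARC binds collagen IV. Embryonic stem cells deposit laminin and collagen IV, and endoderm that forms among them makes much more of both. Collagen genes are textbook targets of the miR-29 family and of Tgf-β signalling.

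The microRNA seeds and their matches in the members are shown because both knockouts remove microRNA processing. In the mature microRNAs, from RefSeq (GRCm38.p6), capitals mark the seed, bases 2 to 8. The miR-29 members share 1 seed. miR-294, of the main microRNA cluster of embryonic stem cells, shares its seed with miR-302b. The let-7 family is associated with differentiated cells.
miR-29a-3p: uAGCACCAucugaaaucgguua
miR-29b-3p: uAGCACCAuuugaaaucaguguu
miR-29c-3p: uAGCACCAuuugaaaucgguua
miR-294-3p: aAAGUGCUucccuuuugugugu
miR-302b-3p: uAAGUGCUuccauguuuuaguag
let-7a-5p: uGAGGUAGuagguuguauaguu

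In each gene, the longest annotated 3' UTR of any coding transcript was searched, on the transcript strand only. The words sought were the 7 bases complementary to each seed: TGGTGCT for miR-29, AGCACTT for miR-294 and miR-302b, and CTACCTC for let-7. The lines below show 30 transcribed bases around each match, with the match in capitals, in GRCm38 (mm10) from the GENCODE M21 annotation. The match itself lies at the coordinates given in the sentences that follow.
Col4a1 miR-29 match: gccaccgtcacaacaTGGTGCTactccccc
Col4a2 first miR-29 match: gtgggaaggccacgtTGGTGCTtatccttc
Col4a2 second miR-29 match: ccaccacacccagctTGGTGCTtactctta
Lamc1 miR-29 match: tattatctgacacacTGGTGCTattaatta
Col4a2 miR-294 match: ggaggaggagatgatAGCACTTttttctat
Nid1 miR-294 match: catgcctgcaaccctAGCACTTgggaggca
Nid1 first let-7 match: ggggaacagagccccCTACCTCcttttctt
Nid1 second let-7 match: ccccaaccctatctcCTACCTCcacctcga

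The miR-29 match of Col4a1 lies at chr8:11199762-11199768 on the minus strand. Those of Col4a2 lie at chr8:11448359-11448365 and chr8:11448530-11448536 on the plus strand, and that of Lamc1 at chr1:153220069-153220075 on the minus strand. The miR-294 matches lie at chr8:11448983-11448989 in Col4a2 and chr13:13510379-13510385 in Nid1, both on the plus strand. The let-7 matches of Nid1 lie at chr13:13511847-13511853 and chr13:13511897-13511903 on the plus strand. A miR-29 match was thus held by 3 of 9 members, against 13.5% of 17864 genes with an annotated 3' UTR. A miR-294 match was held by 2 of 9 members against 15.1%, and a let-7 match by 1 of 9 against 9.34%. The searched UTRs differ in length, from 151 bases in Lamb1 to 2551 in Lamc1, so these shares are a description of these windows and not of binding. None of these 7-base words was found in Lama1, Lama5, Lamb1, Hspg2 or Sparc.

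The tables hold reads divided by a size factor per library, given as group means, from which the whole reads of each library were recovered. Libraries within a group are lettered A, B and C, and the letters do not map to the labels' replicate numbers. Exonic depth was 5889725 to 31281083 reads per library and intronic depth 559057 to 5597604. The 4 tables have separate scales, so levels are compared within a table only. Dicer1 exonic reads were 1333.5 to 1762.9 in the knockout libraries and 2943.8 to 3496.4 in TFC, and Dgcr8 reads were 342.1 to 1113.6 in the knockout and 1929.8 to 2947.1 in V6.5. These sums cover all exons of each gene, deleted and retained ones together. The stem cell transcript Nanog was present in every library, at 12054.5 to 18785.4 reads in the knockouts and 4604.1 to 17024.3 in the wild types. A is the library of each group least like the other 2, and it differed from them along GC content: over 12460 to 12882 genes, the rank correlation of its deviation with transcript GC was 0.61 to 0.79. TFC library B lacked reads of many genes: 9.41% of its genes of medium level were under 5% of their group median, against at most 1.13% in the other 11 libraries.

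**Figure D1:**
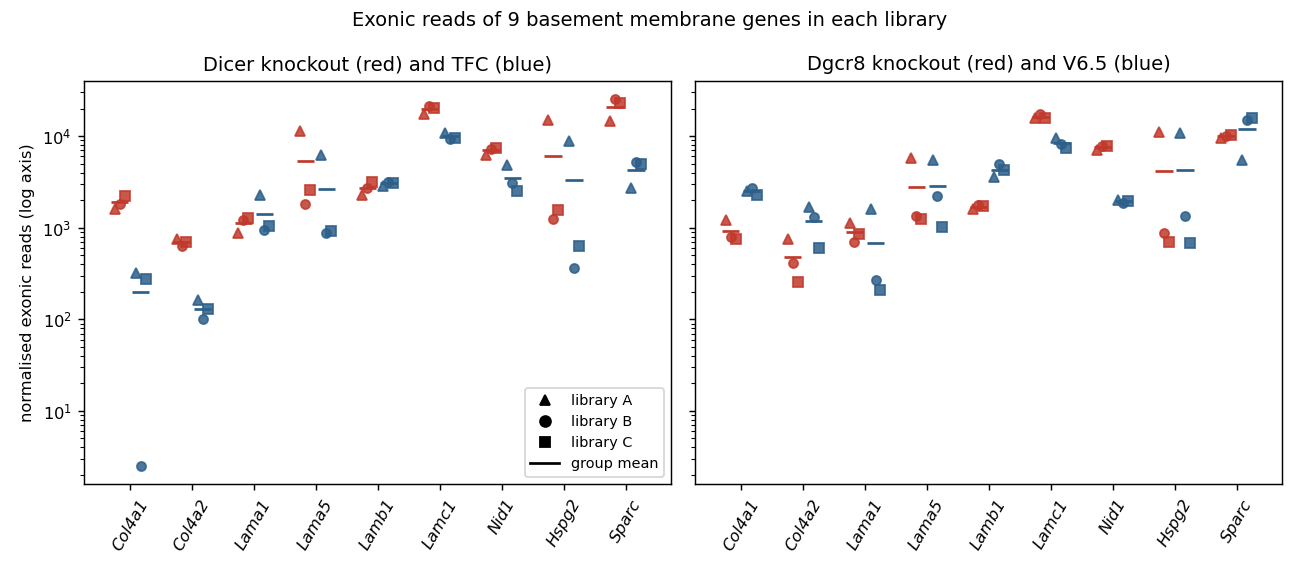
Normalised exonic reads (log axis) of the 9 genes in each library of the Dicer pair (left) and the Dgcr8 pair (right); red symbols are knockout and blue symbols wild-type libraries, shapes give the library letter, and bars are group means. Col4a1, Col4a2, Lamc1, Nid1 and Sparc do not overlap between Dicer knockout and TFC, and Col4a1 in TFC library B stands at 2.5 reads.

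The mean exonic level of both collagen IV chains was higher in the Dicer knockout and lower in the Dgcr8 knockout than in the wild-type line. Col4a1 encodes the α1 chain, and its exonic reads in libraries A, B and C were 1615.3, 1816.3 and 2236.2 in the Dicer knockout against 319.4, 2.5 and 279 in TFC. Every knockout library stood above every TFC library, and the group mean was 9.43-fold higher. The value of TFC library B rests on 2 reads, so the log2 difference of 4.78 (SE 1.49, n = 3 and 3) was 2.64 (SE 0.31) without that library. Dgcr8 knockout libraries had Col4a1 at 1210, 793.2 and 745.1 against 2531.5, 2697.2 and 2279.3 in V6.5. Here every knockout library was below every V6.5 library, with a mean 2.73-fold lower (log2 difference -1.48, SE 0.28).

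Col4a2 encodes the α2 chain, and its exonic reads were 757.2, 636.1 and 699.8 in the Dicer knockout against 163.7, 100 and 129.4 in TFC. The groups did not overlap, and the mean was 5.32-fold higher (log2 difference 2.43, SE 0.46). Col4a2 in the Dgcr8 pair stood at 760.2, 416.4 and 254.2 against 1691.1, 1294.6 and 605.7 in V6.5. The knockout mean was 2.51-fold lower (log2 difference -1.34, SE 0.53), but knockout library A stood above V6.5 library C. The letter A was the highest library of both groups for this GC-rich transcript, and within A alone the log2 difference was -1.15, against -1.44 within B and C.

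The 2 collagen IV genes share a start on chromosome 8. Col4a1 (ENSMUSG00000031502, chr8:11198423-11312826) is read from the minus strand and Col4a2 (ENSMUSG00000031503, chr8:11312805-11449287) from the plus strand. Their annotated first exons overlap by 22 bases. The libraries keep strand, but the sources used here do not say whether the authors' counting used it. Reads per kb of exon put Col4a1 above Col4a2 in 11 of 12 libraries, by 1.46 to 3.67-fold, and TFC library B was the exception at 0.0244. Over the 12 libraries, each centred on its pair's mean, log2 levels of the pair correlated at r = 0.77, a description that the libraries' shared preparation also enters.

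Intronic reads of both collagen genes were few. Col4a1 had 17, 145.6 and 2.8 intronic reads in the Dicer knockout against 9.7, 0 and 25.2 in TFC, and Col4a2 had 27.1, 20.8 and 55 against 8.1, 0 and 27.9. These groups overlapped, and intronic TFC library B was at 0 for both genes. In the Dgcr8 knockout, intronic Col4a2 stood at 15.4, 11.5 and 17.4 against 35.5, 51.1 and 74.8 in V6.5, with no overlap (log2 difference -1.76, SE 0.79). Intronic Col4a1 overlapped, at 15.4, 27.5 and 41.7 against 56.3, 58.8 and 34.9.

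The γ1 laminin chain was higher in both knockouts in every library, whereas the β1 chain overlapped in the Dicer pair and was lower in the Dgcr8 knockout. Lamc1 encodes γ1, the gamma chain of most laminins. Its exonic reads were 17582.6, 21099.2 and 20385.2 in the Dicer knockout against 10856.8, 9408.2 and 9583.1 in TFC. All 3 knockout libraries were above all 3 TFC libraries, by 1.98-fold in the mean (log2 difference 0.98, SE 0.25). In the Dgcr8 knockout Lamc1 stood at 15772.1, 17360.5 and 15921.1 against 9491.3, 8282 and 7437.1 in V6.5. Again no libraries overlapped, and the mean was 1.95-fold higher (log2 difference 0.97, SE 0.25).

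Intronic reads of Lamc1 overlapped in both pairs. They were 365, 330.6 and 335.9 in the Dicer knockout against 370.3, 315.8 and 269.7 in TFC, and the groups overlapped (log2 difference 0.12, SE 0.33). In the Dgcr8 pair they were 189.5, 240.8 and 319.6 against 216.2, 85.9 and 157.2 in V6.5, also with overlap (log2 difference 0.77, SE 0.40). The difference between exonic and intronic change was not tested.

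Lamb1, which encodes the β1 chain, had exonic reads of 2304.1, 2706.8 and 3133.9 in the Dicer knockout against 2876.4, 3197.8 and 3089.4 in TFC. These groups overlapped (log2 difference -0.18, SE 0.22). Dgcr8 knockout libraries had Lamb1 at 1619.3, 1782.1 and 1707.6 against 3544.7, 4985.2 and 4241.3 in V6.5. The 3 knockout libraries lay close together and all below V6.5, with a mean 2.50-fold lower (log2 difference -1.31, SE 0.25). Intronic Lamb1 did not overlap either: 44.4, 55.6 and 19.7 reads in the Dgcr8 knockout against 106.6, 253.7 and 318.1 in V6.5, 5.67-fold lower in the mean (log2 difference -2.45, SE 0.55). In the Dicer pair, intronic Lamb1 overlapped, at 63.6, 62.4 and 124.2 against 98.6, 223.5 and 138.4.

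The β1 to γ1 balance is a ratio within 1 library, so the size factor cancels. Per kb of exon, Lamb1 stood at 0.173, 0.169 and 0.203 of Lamc1 in the Dicer knockout and at 0.349, 0.448 and 0.425 in TFC. In the Dgcr8 knockout it stood at 0.135, 0.135 and 0.141, and in V6.5 at 0.493, 0.794 and 0.752. In each pair every knockout library had a lower ratio than every wild-type library. Library A of each wild-type line had the lowest ratio of its group.

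**Figure D2:**
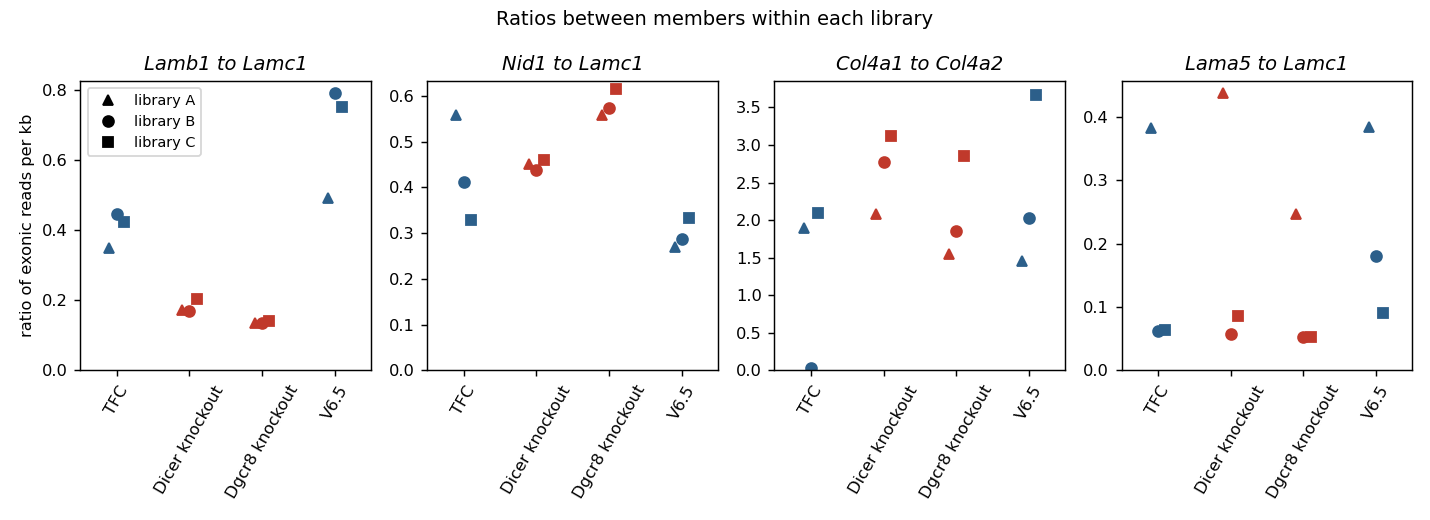
Ratios of exonic reads per kb between members within each library (vertical axis, from 0) for the 4 groups; red is knockout, blue is wild type, and shapes give the library letter. Lamb1 to Lamc1 is 0.135 to 0.203 in the knockouts and 0.349 to 0.794 in the wild types, whereas Lama5 to Lamc1 is highest in library A of each group.

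The alpha chains were less clear. Lama5 encodes α5, an alpha chain made by embryonic stem cells. Its exonic reads were 11487.4, 1816.3 and 2589.5 in the Dicer knockout against 6200.1, 877.9 and 919 in TFC. The groups overlapped, and library A was 5.29-fold above B and C in the knockout and 6.90-fold in TFC. Within A the log2 difference was 0.89 and within B and C 1.27. Lama5 in the Dgcr8 pair stood at 5789.1, 1347.8 and 1232 against 5431.2, 2223.6 and 1010.5 in V6.5, with differences of 0.09 within A and -0.22 within B and C.

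Intronic Lama5 was 740, 243.9 and 513.7 in the Dicer knockout against 389.1, 231.3 and 97.8 in TFC, which overlapped (log2 difference 1.13, SE 0.49). In the Dgcr8 pair it was 150.2, 134.2 and 126.2 against 139.2, 192.6 and 87.3, with a log2 difference of 0.04 (SE 0.40). Intronic library A was the highest in both groups of the Dicer pair, but not in V6.5.

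Lama1 encodes α1, the alpha chain of the first embryonic laminin. Its exonic reads were 878.6, 1216.5 and 1272.2 in the Dicer knockout against 2289.1, 937.9 and 1049.9 in TFC, and 1113.2, 696.8 and 865 in the Dgcr8 knockout against 1592, 268.5 and 207.2 in V6.5. In each wild-type line library A stood far above B and C, by 2.31-fold in TFC and 6.72-fold in V6.5. The direction therefore turned with the libraries taken. Within A, the log2 difference was -1.38 in the Dicer pair and -0.52 in the Dgcr8 pair, and within B and C it was 0.33 and 1.71. Over all libraries it was -0.24 (SE 0.37) and 0.97 (SE 0.73), and the latter was 1.89 (SE 0.35) without V6.5 library A. Intronic Lama1 was 120.8, 138.7 and 302 against 337.8, 95.6 and 107.6 in the Dicer pair, and 76, 132.5 and 150.5 against 154, 44.9 and 22.5 in the Dgcr8 pair, with library A again the highest wild-type library in each.

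Of the linker genes, Nid1 was higher in both knockouts, in exons and in introns. Nid1 encodes nidogen-1, which binds the laminin γ1 chain and collagen IV. Its exonic reads were 6304.7, 7322 and 7445.8 in the Dicer knockout against 4814, 3069 and 2493.9 in TFC. No libraries overlapped, and the mean was 2.03-fold higher (log2 difference 1.07, SE 0.28). Nid1 in the Dgcr8 knockout stood at 6986.5, 7903.8 and 7767.5 against 2026.2, 1877 and 1970 in V6.5. All 6 libraries lay close to their group means, 3.86-fold apart (log2 difference 1.95, SE 0.23).

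Intronic Nid1 was higher in both knockouts too. In the Dgcr8 knockout it stood at 169.9, 136.5 and 233.9 reads against 50.3, 26.3 and 39.9 in V6.5, without overlap (log2 difference 2.20, SE 0.48). In the Dicer knockout it stood at 166.7, 305.1 and 183.5 against 131.6, 57.8 and 78.3 in TFC, also without overlap (log2 difference 1.31, SE 0.58). Nid1 was the member whose groups did not overlap in any of the 4 tables, all with the knockout higher. Over all tested genes, 11.7% in Dicer exons and 10.6% in Dgcr8 exons were higher without overlap. Such shares were not computed for introns, here or for the other members, nor for the 4 tables together. Over the 12 libraries, centred on the pair and not the group, its level had r = 0.94 with Lamc1 and r = -0.87 with Lamb1, values that largely restate the knockout-against-wild-type differences above. Relative to Lamc1 per kb, Nid1 was 0.558, 0.574 and 0.615 in the Dgcr8 knockout against 0.269, 0.286 and 0.334 in V6.5, while 0.452, 0.437 and 0.46 in the Dicer knockout lay within the TFC range of 0.328 to 0.559.

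Hspg2 encodes perlecan, a large heparan sulphate proteoglycan. Its exonic reads were 15187.7, 1255.2 and 1567 in the Dicer knockout against 8880.7, 365.2 and 627.1 in TFC, and 11005.7, 881.7 and 690.7 in the Dgcr8 knockout against 10842.2, 1336.3 and 682.2 in V6.5. Library A was 10.8 to 18.5-fold above B and C in each of the 4 groups, far more than knockout and wild type differed. Within A the log2 difference was 0.77 in the Dicer pair, and within B and C it was 1.55. In the Dgcr8 pair these values were 0.02 and -0.29. Over all libraries the SE exceeded 1 in both pairs (1.29, SE 1.24, and -0.19, SE 1.27).

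Intronic Hspg2 was highest in library A in each group, and it stood at 494.6, 173.4 and 245.5 in the Dicer knockout against 460.8, 97.9 and 247.4 in TFC, and at 143.4, 99.2 and 143 against 201.4, 125.3 and 74.8 in the Dgcr8 pair. Both pairs overlapped, with log2 differences of 0.30 (SE 0.53) and 0.04 (SE 0.44).

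The step of library A went with GC content in some members and not in others. Hspg2, Col4a2 and Lama5 had the most GC-rich transcripts of the 9, at 60.9%, 60.6% and 59.9%, against a median of 49.9% over 17923 genes. Hspg2 and Lama5 had the highest A values in both knockouts. Col4a2 did not share their step, with log2 differences of A from B and C of 0.18, 0.52, 1.22 and 0.93 in the Dicer knockout, TFC, the Dgcr8 knockout and V6.5. Lama1, at 53.8% GC, had 2.75 in V6.5. Nid1, Lamb1, Sparc and Lamc1, at 50.4 to 53.0%, were within 1.86-fold of the other libraries in A in 15 of their 16 group values, with Sparc in V6.5 the exception at 2.83-fold lower. Across the 12 libraries Lama5 and Hspg2 had the highest correlation of any pair of members (r = 0.98). The part of GC content in these values was not tested.

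**Figure D3:**
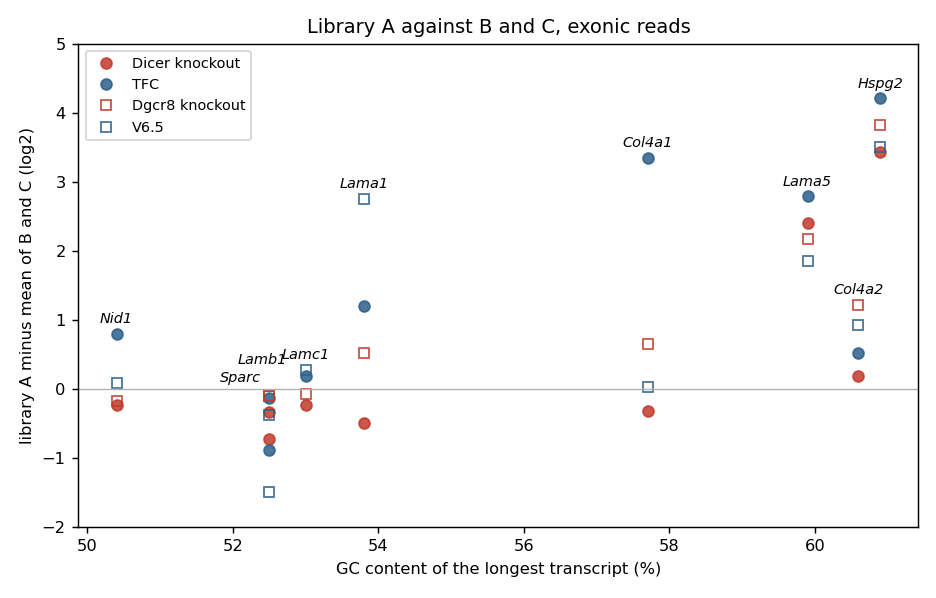
Difference of library A from the mean of libraries B and C (log2 exonic reads, vertical axis) against transcript GC content (horizontal axis) for the 9 genes in the 4 groups. Hspg2 lies at 3.44 to 4.21 and Lama5 at 1.86 to 2.79 in all groups; Lama1 in V6.5 (2.75) and Col4a1 in TFC (3.35, with 2 reads in library B) are high in 1 group.

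Sparc encodes a secreted collagen-binding glycoprotein that parietal endoderm and fibroblasts make in quantity. Its exonic reads were 14516.8, 25222.5 and 22944.1 in the Dicer knockout against 2721.3, 5170 and 4950.5 in TFC. The groups lay far apart, 4.88-fold in the mean (log2 difference 2.30, SE 0.34). In the Dgcr8 pair they overlapped, at 9510.8, 10057.2 and 10406.5 in the knockout against 5446.5, 15100.7 and 15787.5 in V6.5. V6.5 library A was low for Sparc, so the log2 difference was 0.80 within A, -0.59 within B and C, and -0.13 (SE 0.43) over all libraries.

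Intronic Sparc was 217.1, 252 and 175 in the Dicer knockout against 45.2, 0 and 41.9 in TFC. The groups did not overlap, and without intronic TFC library B, which was at 0, the log2 difference of 4.09 (SE 1.40) became 2.26 (SE 0.59). In the Dgcr8 pair intronic Sparc overlapped, at 183.5, 51.6 and 68.3 against 32.6, 136.2 and 79.8.

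**Figure D4:**
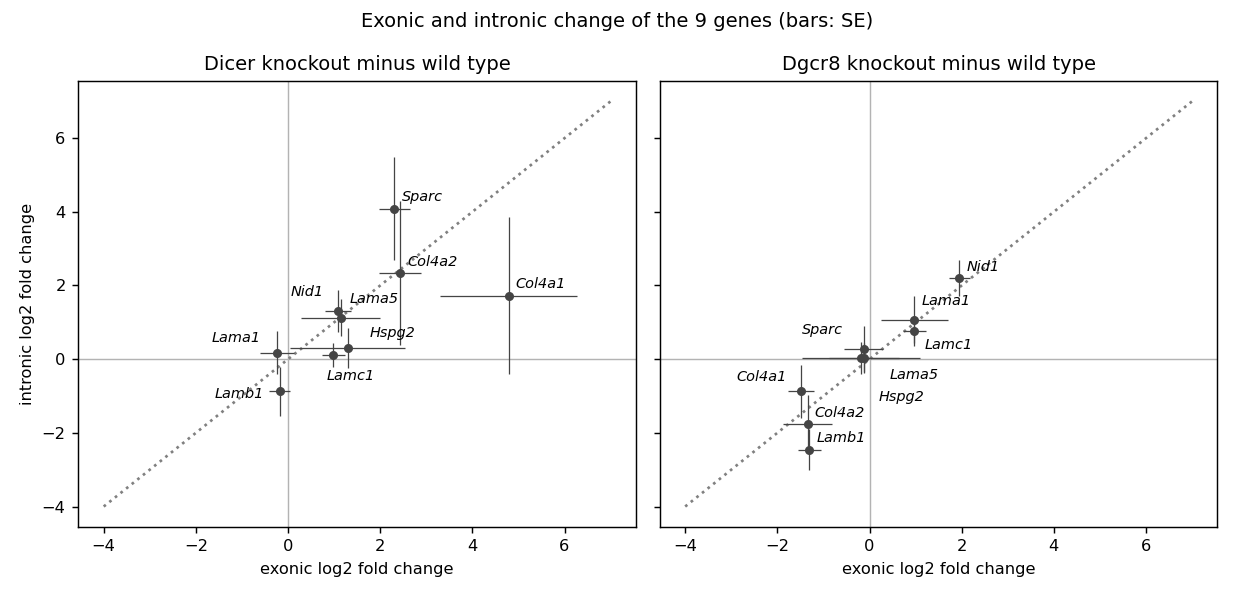
Exonic (horizontal) against intronic (vertical) log2 difference, knockout minus wild type, of the 9 genes in the Dicer pair (left) and the Dgcr8 pair (right); bars are SE and the dotted line marks equal change. Nid1 lies near the line in both pairs, Lamb1 lies lower in the Dgcr8 pair (-1.31 and -2.45), and Lamc1 in the Dicer pair lies at 0.98 in exons and 0.12 in introns.

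Per kb of exon, Sparc and then Lamc1 had the highest mean of the 9 genes in every group. Sparc stood at 7912 reads per kb (5497 to 9550 over libraries) in the Dicer knockout, 1621 (1030 to 1958) in TFC, 3783 (3601 to 3940) in the Dgcr8 knockout and 4586 (2062 to 5978) in V6.5. Lamc1 followed at 2583, 1305, 2145 and 1103, and the ranges of Sparc and Lamc1 overlapped in TFC alone. Nid1 was next in 3 groups, at 1162 in the Dicer knockout, 572 in TFC (where its range overlapped that of Lamb1) and 1249 in the Dgcr8 knockout. V6.5 had it at 324, below Lamb1 at 737 and Col4a1 at 378. Below these, the ranges of Lamb1, Lama5 and Hspg2 overlapped in both knockouts, so their order there is not resolved. Col4a1 and Col4a2 were the lowest in TFC (30.3 and 20.3), below Lama1 at 150.

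By limma's moderated test with Benjamini-Hochberg adjustment over all genes of a table, 2 of 9 members (Col4a2 and Sparc) passed as higher in Dicer knockout exons, where 1.02% of 13169 genes did, and none as lower, where 0.228% did. In Dgcr8 knockout exons 1 member, Nid1, passed as higher (0.746% of 12737 genes) and none as lower (0.518%). In Dgcr8 introns Nid1 passed as higher (1.11% of 10748 genes) and Lamb1 as lower (0.409%). In Dicer introns limma called 0 members (0.275% of 11625 genes passed as higher and 0.0774% as lower). At an unadjusted limma p under 0.05 were 3 members, beside 1176 of all 11625 genes. By limma-voom 0 members were called there, among 64 genes. Groups did not overlap for 5 members higher in Dicer exons (11.7% of all genes) and 0 lower (9.64%), and for 2 higher (10.6%) and 2 lower (11.9%) in Dgcr8 exons. The list was selected on these contrasts, so nothing is read from its counts. The counts also moved with single libraries. In Dicer exons no member, and no gene of the table, was called without knockout library B, knockout library C or TFC library C. Without knockout library A 1 member (Sparc) and 88 genes in all were called, without TFC library B 1 (Col4a1) and 26, and without TFC library A 4 and 521, against 164 genes over all libraries. In Dgcr8 exons no gene at all was called without library B or C of either group. Without library A 3 members were called, with 465 genes in all (knockout) or 387 (V6.5), against 161 over all libraries. In Dgcr8 introns none was called without knockout library B or C or V6.5 library B or C, with 26 to 72 genes called in all, and 1 (Lamb1) without knockout library A, with 206. A term for the library set (A against B and C) called 7 members in Dicer exons, all but Lama1 and Lamb1 and all higher, among 1607 genes. In Dgcr8 exons it called Lamc1 and Nid1 as higher and Col4a1, Col4a2 and Lamb1 as lower, among 2158 genes. A pseudocount of 10 also called Col4a1 and Lamb1 as lower in Dgcr8 exons, among 241 genes. Without the variance trend 0 members were called in Dicer exons and 0 in Dgcr8 introns, among 35 and 107 genes. Limma-voom called Sparc and not Col4a2 in Dicer exons, among 21 genes, and Nid1 in Dgcr8 exons, among 49. In Dgcr8 introns it called Lamb1 and not Nid1, among 121 genes.

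Fibroblast markers (14 genes, all with values) summed to 5769.0 to 13447.7 exonic reads per library in V6.5 and to 537.2 to 1427.8 in the Dgcr8 knockout. The list had 1 of 11 tested genes higher in the knockout and a median log2 difference of -3.64, against -0.08 over all genes. None of its markers was at 0 in all V6.5 libraries, and Lum was at 0 in all Dgcr8 knockout libraries. Col1a1, a fibrillar collagen chain, fell from 1000.4, 1770 and 1353.2 reads in V6.5 to 96.8, 28 and 19.2 (log2 fold change -5.12, SE 0.64; limma adjusted p = 0.0248, and 0.000385 to 0.188 over the alternatives). Acta2 and Tagln, smooth muscle proteins that cultured fibroblasts also make, fell as well (log2 fold changes -3.80 and -3.22; limma adjusted p = 0.0263 and 0.0337). Col1a1, Acta2 and Tagln were picked for naming after their values were seen, so their p-values are given as a description.

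Endoderm markers (15 genes) summed to 853.2 to 1302.2 reads in V6.5 and 239.3 to 418.9 in the Dgcr8 knockout. The list went both ways, with 4 of 11 tested genes higher in the knockout and a median log2 difference of -1.58. Ttr and Afp were at 0 in all 6 libraries. Dab2, an endocytic adaptor of primitive endoderm, fell from 299.6, 596 and 964.3 to 35.9, 7.8 and 20.8 (log2 fold change -4.86, SE 0.74; limma adjusted p = 0.0337, and 0.0015 to 0.225 over the alternatives). Dab2 too was picked for naming after its values were seen. Without Dab2 the sums overlapped, at 337.9 to 553.5 in V6.5 and 231.5 to 383.0 in the knockout. Stem cell markers (Pou5f1, Nanog, Sox2 and Zfp42) summed to 18441.1 to 52090.7 reads in V6.5 and 43691.3 to 64724.0 in the knockout. The lower Col4a1, Col4a2 and Lamb1 of the Dgcr8 knockout stood beside lower fibroblast markers and lower Dab2, and the part of either in those differences was not tested. In bulk RNA, fewer cells of a type and less RNA per cell cannot be told apart.

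The sums of both full lists overlapped in the Dicer pair. Endoderm markers summed to 372.6 to 499.3 reads in the knockout and 414.6 to 1612.3 in TFC, with Sox17 and Afp at 0 in all 6 libraries and Foxa2 at 0 in TFC. Of 9 tested endoderm markers 4 were higher, with a median log2 difference of -0.07. Sox7 alone of this list was lower without overlap. It stood at 11.5, 13.6 and 0 reads against 139.1, 185.1 and 115.1 in TFC (log2 difference -4.67, SE 1.45). Without Dab2 the endoderm sums did not overlap, at 163.6 to 313.1 in the knockout and 370.7 to 786.7 in TFC. Fibroblast markers summed to 458.1 to 636.1 and 399.1 to 1133.3, with 7 of 14 (Col1a2, Col3a1, Postn, Lum, Twist2, Prrx1 and Fap) at 0 in all Dicer knockout libraries and 2 in TFC. Most of the knockout sum was Tagln (291.4, 515.7 and 482 reads, against 125.2, 62.5 and 123.7 in TFC). Without Tagln the sums did not overlap, at 114.2 to 166.8 in the knockout and 273.9 to 1009.7 in TFC. With Tagln in the list, 8 of 10 tested fibroblast markers were lower, with a median log2 difference of -1.36. The 8 include small differences of Col1a1 (-0.123) and S100a4 (-0.015). None of the list passed limma's test. Thy1 alone was lower without overlap, and Tagln alone was higher without overlap. The higher Col4a1, Col4a2 and Sparc of the Dicer knockout stood beside fibroblast markers that overlapped in sum with Tagln and were lower without it. Of 10 tested fibroblast markers, 8 were lower. The part of this list in those differences was not tested. Endothelial markers (7 genes) were higher in sum in both knockouts, at 1466.4 to 1531.1 against 339.2 to 717.8 in the Dicer pair and 523.6 to 1030.9 against 190.4 to 417.3 in the Dgcr8 pair. Tek and Kdr made up most of the sum in the Dicer knockout, at 1006.6 to 1085.9 and 346.3 to 460.8 reads, and 3 of 7 markers could be tested there. In Dgcr8 exons 3 of 5 tested were higher, with a median log2 difference of 0.19. Emcn was at 0 in all 12 libraries, and the part of this list in the members' values was not tested.

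Of 69 companion symbols listed for the basement membrane, 67 were in the tables (Lama3 and Lepre1 were not, the latter an older symbol of P3h1, which was). By limma's test 1 passed in Dicer exons, as higher. Htra1, a secreted serine protease that cleaves matrix proteins, rose from 342.9, 260.1 and 394.1 to 2010.2, 3330.4 and 3596.1 (log2 fold change 3.14, SE 0.33; limma adjusted p = 0.00768, and 0.000131 to 0.106 over the alternatives). The groups lay far apart, 8.96-fold in the mean. The call was lost without knockout library B, knockout library C or TFC library C, where no gene of the table was called. It was also lost without the variance trend, where 35 genes were called in all. Without TFC library A 8 companions were called, among 521 genes.

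Of the 59 companions tested in Dicer exons, 43 were higher in the knockout, with a median log2 difference of 0.83, against 6503 of 13169 genes and a median of -0.01. The companion and marker lists were chosen with earlier results of these data known, so their counts and medians are a description. Other basement membrane components were higher in 13 of 17, receptors for laminin and collagen IV in 10 of 11, and matrix remodelling genes in 11 of 14. Genes of collagen and laminin assembly were higher in 9 of 17. Dag1, the dystroglycan receptor of laminin, stood at 10729.6, 7939.9 and 9285 against 5489.1, 3169 and 3319.5 (log2 difference 1.26; limma adjusted p = 0.0801, and 0.000796 with a library-set term). Col18a1, a basement membrane collagen, stood at 14572.4, 4408.4 and 4837.7 against 4788.9, 1569.5 and 1872.6. The letter A was highest in both groups. Col18a1 did not pass over all libraries (limma adjusted p = 0.248) and passed with the library-set term (0.000258), with B and C alone and without TFC library A. That term fits A apart from B and C, and the letters were taken from the libraries' values, not from labels. With it, 15 companions passed as higher and 1 as lower, among 1607 genes called in all, against 164 without the term.

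The other companions named by rule did not pass in Dicer exons. Agrn, the heparan sulphate proteoglycan agrin, had a log2 difference of 1.18 (limma adjusted p = 0.395). Serpinh1, the collagen chaperone HSP47, had 1.36 (0.472), Itga6, the α6 integrin chain, 0.68 (0.242), and Itgb1, its β1 partner, 0.32 (0.74). Nid2, the second nidogen, had -0.12 (0.906) where Nid1 stood higher, and Lamb2, the β2 laminin chain, had 0.68 (0.849). Col4a5 (1.18, 0.827) had libraries from 0 to 105 reads, and Col4a6 was too low to be tested.

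In Dgcr8 exons 1 companion passed. Htra1 rose there too, from 413.9, 317.5 and 325.2 reads in V6.5 to 1885, 1663.3 and 1533.4 (log2 fold change 2.27, SE 0.28; limma adjusted p = 0.0248, and 0.000261 to 0.188 over the alternatives). The call was lost without library B or C of either group, where no gene was called. Without library A of either group 4 companions were called, among 465 genes (knockout) or 387 (V6.5). Of 57 companions tested, 20 were higher in the knockout, against 5823 of 12737 genes. Their median log2 difference was -0.64, against -0.08 over all genes. Here too the count and median describe a list chosen with earlier results known.

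None of the other collagen IV chains measured passed in the Dgcr8 pair. Col4a4 was at 0 in all 6 libraries, and Col4a3 stood at 0, 14 and 0 against 0, 5.4 and 0. Col4a5 stood at 3.3, 23.3 and 56.8 against 109.2, 391 and 347.5 in V6.5 (log2 difference -3.76; limma adjusted p = 0.131, and 0.00357 with the library-set term). Col4a6 stood at 6.7, 0 and 0 against 25.4, 68 and 44.6 (-4.47; 0.134, and 0.039 with the term). Col4a5 and Col4a6 did not overlap between groups. Of the alternatives run, both passed with that term and with libraries B and C alone, and in no other. Both settings rest on letters taken from the libraries' values, not from labels. Lamb2 (1.41; 0.6), Col18a1 (0.76; 0.709), Nid2 (0.29; 0.764), Agrn (-0.07; 0.974), Serpinh1 (-0.88; 0.518), Itgb1 (-0.40; 0.816), Itga6 (0.09; 0.943) and Dag1 (0.11; 0.912) did not pass, each given as log2 difference and limma adjusted p.

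**Figure D5:**
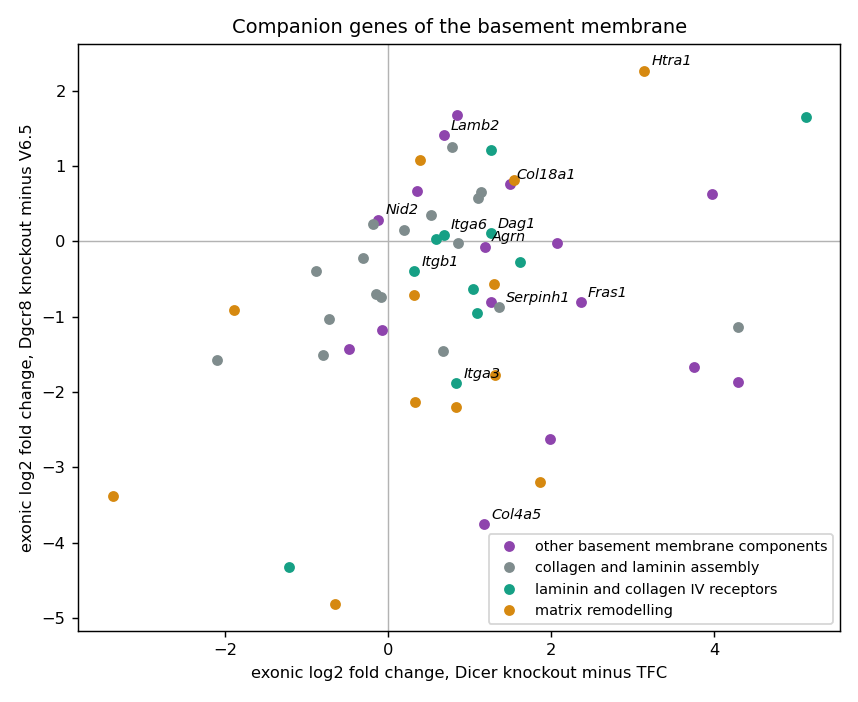
Exonic log2 difference of 56 companion genes tested in both pairs, Dicer knockout minus TFC (horizontal) and Dgcr8 knockout minus V6.5 (vertical), coloured by list. Htra1 lies at 3.14 and 2.27 and passed in both.

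In introns, Itga3, the α3 integrin chain of a laminin receptor, fell in the Dgcr8 knockout, from 245.8, 387.6 and 223.3 reads in V6.5 to 71.7, 59.1 and 67.2 (log2 fold change -2.06, SE 0.39; limma adjusted p = 0.0162, and 0.00361 to 0.159 over the alternatives). In exons the Itga3 groups did not overlap either, at 1662.2, 565.6 and 409.3 against 3392.3, 3074.6 and 1855.3 (-1.88; limma adjusted p = 0.132). The intronic call was lost without knockout library B or V6.5 library B or C. It was also lost without the variance trend, where 107 genes were called in all. In Dicer introns limma called 0 of 47 companions, and limma-voom also called 0. At an unadjusted limma p under 0.05 were 8 companions, beside 1176 of all 11625 genes.

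The mean profile of the 9 members over the 12 libraries, each gene centred within its pair, was compared with that of 12315 genes. The closest were Rela (r = 0.974), Ctdspl (0.959), Cln6 (0.953), Card10 (0.953) and Tsc22d1 (0.952). The 12 points share library preparation and the step of library A, so these values are a description.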

How the data were processed

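The submitters' processing notes name DESeq, TopHat2 2.0.12 and build mm10. The authors deposited 4 tables (exons and introns of each pair) of normalised reads, a signal scaled by size factors, as 1 mean per group, per the file headers. The sources used here do not say how reads were assigned. Each mean is a whole-number combination of 3 steps, 1 per library, and solving for these gave whole reads per library: 99.45 to 100% of 18412 genes had 1 solution, all 9 members among them. Up to 101 exonic genes of high level per column were left out. Library A has the lowest mean correlation with the others, and size factor orders B and C. Intronic A was matched by its deviations (r of 0.306 to 0.431), and intronic B and C are names only. Differences are knockout minus wild type on log2(value + 1), with SEs from limma 3.58.1 (R 4.3.3, variance trend, 4 residual degrees of freedom) over genes with a mean of at least 10. Benjamini-Hochberg adjusted p under 0.05 counts as passing, and an exact permutation test of 3 against 3 cannot go below 0.1. Recovery and limma were tested on simulated data. Alternatives were a pseudocount of 10, no filter, no trend, a library-set term (A against B and C), leaving out each library, and ratios of means. Added after seeing the data were limma-voom on recovered reads, in place of a planned count test, libraries B and C alone, and marker sums without Dab2 or Tagln. The members and gene lists were chosen with earlier results of these data known. Named were all members, companions that passed, and 10 companions listed whatever they did (Nid2, Agrn, Col18a1, Lamb2, Col4a5, Col4a6, Serpinh1, Itgb1, Itga6 and Dag1), and the 5 genes most like the members. Genes named among the cell-type markers, Col4a3, Col4a4 and exonic Itga3 were chosen after their values were seen. 1 listed companion is not reported here and is left out of the companion counts.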

Additional observations from a re-analysis of the deposited data

Results flagged for a closer look

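Exonic Col4a1 moved opposite ways in the 2 pairs: every Dicer knockout library stood above every TFC library, with a ratio of group means of 9.432, and every Dgcr8 knockout library stood below every V6.5 library, with a ratio of 0.366. The difference between the pairs was not tested. Without TFC library B, where Col4a1 had 2 reads, the Dicer direction was the same (log2 difference 2.64).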

How the results depend on the processing

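The count of companions that passed was 1 in Dicer exons, 0 in Dicer introns, 1 in Dgcr8 exons and 1 in Dgcr8 introns. Without the variance trend it was 0 in Dicer exons and 0 in Dgcr8 introns. With the library-set term it was 16, 19 and 2 in Dicer exons, Dgcr8 exons and Dgcr8 introns, and with libraries B and C alone 9, 23 and 2. The number of genes called in all rose too, from 164, 161 and 163 to 1607, 2158 and 451 with the term and to 738, 2288 and 237 with B and C alone. Leaving out 1 library gave 0 to 8 in Dicer exons, 0 in Dicer introns, 0 to 4 in Dgcr8 exons and 0 to 1 in Dgcr8 introns. The cause of these changes was not tested. For the members, 461 of 468 values under the alternatives were within 1 SD of the reported log2 difference. This count is no measure of stability. The settings without filter, without trend and with the library-set term leave each log2 difference unchanged by construction. The SD is each gene's own spread between libraries, so noisy genes stay within it, as exonic Hspg2 in the Dicer pair did at 0.14 to 2.69. The 7 values outside 1 SD were exonic Col4a1 without TFC library B (2.64), intronic Sparc without intronic TFC library B (2.26), exonic Lama1 in the Dgcr8 pair without V6.5 library A (1.89), and, with B and C alone, Lama1 in Dicer exons (0.33), Dicer introns (1.01) and Dgcr8 introns (2.12) and Sparc in Dgcr8 introns (-0.80). The sign differed in 28 of the 468, all of Hspg2, Lama1, Lama5 or Sparc. No paired analysis was possible because the deposited columns are group means that carry no replicate number. The library-set term groups libraries by their values and is no block by number. Intronic reads limit Col4a1 and Col4a2, at 0 to 145.6 per library.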
